A study of Arabidopsis thaliana with 12 samples.

Results

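Aquaporins are membrane channels of the major intrinsic protein family, and the 35 aquaporin genes of arabidopsis (Arabidopsis thaliana) were described here among the 37336 genes of the expression table. They were taken by locus: 5 PIP1 and 8 PIP2 genes (plasma membrane intrinsic proteins), 10 TIP genes (tonoplast intrinsic proteins), 9 NIP genes (nodulin 26-like intrinsic proteins) and 3 SIP genes (small basic intrinsic proteins). Their names are given with a hyphen as in protein databases, so that PIP1-4 is the gene also written with a semicolon after PIP1. RNA-seq was performed in 4 groups of seedlings with 3 samples each, described in the study as independent experiments: CsPYL1_5m seedlings treated with iSB09, CsPYL1_5m seedlings with mock treatment, WT seedlings treated with iSB09 and WT seedlings with mock treatment. WT is Col-0, and CsPYL1_5m plants are homozygous T3 progeny of Col-0 that express an HA-tagged receptor under the broadly active 35S promoter. The receptor is the ABA receptor PYL1 of sweet orange with changes made to raise its sensitivity to sulfobactin. The synthetic agonist iSB09 is a later derivative of sulfobactin. The number of independent lines used for RNA-seq is not given in the sources used here. The compound was applied at 5 μM for 3 hours, and mock treatment was 0.1% DMSO. Ages of 10 days (methods) and 12 days (labels) are both given, and whole seedlings were sampled, so that fewer cells of a type and less RNA per cell cannot be told apart.

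Water moves through plant tissues along cell walls and across membranes, and aquaporins set much of the membrane permeability. PIP channels sit in the plasma membrane and assemble as tetramers, and PIP1 proteins generally need a PIP2 partner to reach that membrane. TIP channels sit in the vacuolar membrane, SIP proteins in the endoplasmic reticulum, and NIP channels carry small uncharged solutes such as boric acid or arsenite in addition to water or in place of it. ABA is the hormone of the drought response, and the kinase OST1, which acts in ABA signaling, phosphorylates PIP2-1 in guard cells.

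Library depth, as reads assigned to genes, was 21502003 to 30696833, and 3 reads on a gene of 1000 bp were worth 0.158 to 0.235 TPM, the unit of level here, which is scaled for gene length and library size, a floor that covers counting error only. The shallowest CsPYL1_5m library was deeper than the deepest WT library, and depth and genotype cannot be told apart. RAB18, an ABA-responsive dehydrin gene used to check the treatment labels, was at 526 to 741 TPM in iSB09-treated and 0.800 to 2.25 TPM in mock-treated CsPYL1_5m plants, and at 49.2 to 69.8 TPM in iSB09-treated and 0.874 to 2.96 TPM in mock-treated WT. The chi-square per gene between replicates of a group was 38.1 or more for the pairs with replicate 2 of iSB09-treated WT, against 5.89 to 19.1 for the other pairs. Among mock-treated WT samples, replicate 1 was the highest for 19 of the 27 aquaporin genes tested, and their median deviation from the group mean was 0.17 in that replicate on the log2 scale.

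The summed level of 5 guard cell marker genes was 91.7 to 100.5 TPM in iSB09-treated and 131 to 150 TPM in mock-treated CsPYL1_5m plants, and 99.7 to 134 TPM in iSB09-treated and 149 to 155 TPM in mock-treated WT. Of these 5 genes, 4 fell (FAMA, MYB60, GC1 and HT1) and KAT1 rose in CsPYL1_5m plants, against 42.3% and 24% of all genes tested. In WT, MYB60 and HT1 fell and KAT1 rose, against 7.13% and 7.5% of all genes tested. Root markers summed to 157 to 176 TPM in iSB09-treated and 175 to 198 TPM in mock-treated CsPYL1_5m plants, and to 129 to 155 TPM in iSB09-treated and 136 to 183 TPM in mock-treated WT, and 5 of 10 fell in CsPYL1_5m plants, near the 42.3% of all genes, and none passed the test in WT. Leaf markers summed to 27386 to 31757 TPM in iSB09-treated and 34192 to 37272 TPM in mock-treated CsPYL1_5m plants, and to 28727 to 39859 TPM in iSB09-treated and 36442 to 39391 TPM in mock-treated WT, and 1 of 5 fell in CsPYL1_5m plants and none passed the test in WT. None of the root, leaf and guard cell markers was at 0 in all samples. The 6 seed storage markers summed to 3.04 to 7.52 TPM in CsPYL1_5m samples and to 0.244 to 1.14 TPM in WT samples. Among them, SESA3 had 2.67 to 6.03 TPM in CsPYL1_5m samples and 0 TPM in every WT sample. The seed sums thus differed between genotypes mostly through SESA3, and the origin of its reads in the transgenic plants was not tested. The part of these shifts in the aquaporin values was not tested.

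Of the 35 aquaporin genes, 27 had at least 1 TPM in all 3 replicates of a group and were tested: all PIP1, PIP2 and SIP genes, 6 of 10 TIP genes and 5 of 9 NIP genes. In mock-treated WT, TIP1-2, TIP1-1 and TIP2-1, the last also known as delta-TIP, together made up 48.2% of the summed TPM of the family. TIP1-2 (AT3G26520, chr3:9722443-9723904 on TAIR10.1, whose nuclear chromosomes are those of TAIR10) was the most abundant member, at 1422 ± 273 TPM in mock-treated WT (SD, n = 3). PIP1-2, a contributor to the water conductance of roots and rosettes, followed the TIP genes at 355 ± 59.8 TPM, PIP2-1 had 336 ± 80.4 TPM, and these levels overlapped in their spread. The highest SIP gene, SIP1-1, had 116 ± 3.34 TPM, and the highest NIP gene, NIP1-1, 43.4 ± 0.669 TPM, close to NIP5-1 at 39.6 ± 3.99 TPM. Levels of the members tested ranged down to 3.04 ± 0.915 TPM for NIP3-1, an arsenite-permeable channel.

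**Figure D1:**
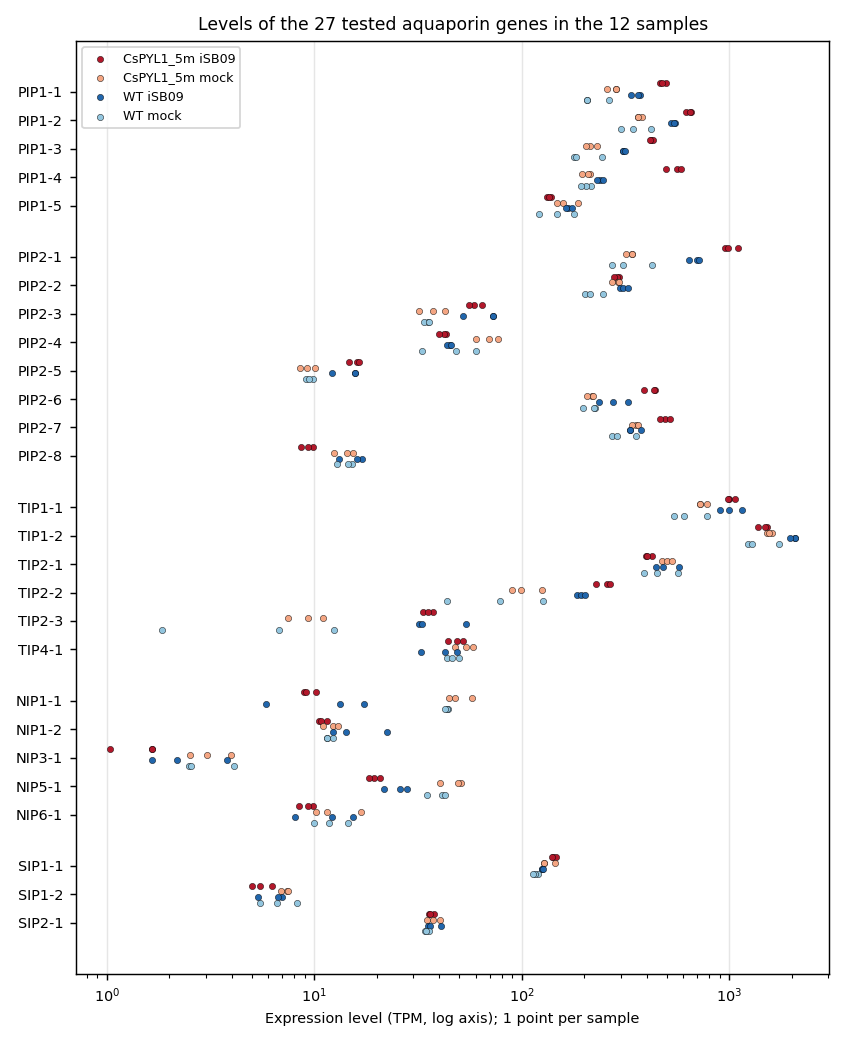
Level of each of the 27 tested aquaporin genes (TPM, log axis) in every sample, with 1 point per sample and colors for the 4 groups. TIP1-2 sits at the right in all groups, PIP1-4 and PIP2-1 of iSB09-treated CsPYL1_5m plants lie right of the other groups, and NIP1-1 and NIP5-1 of iSB09-treated plants lie left of their mock samples.

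The other 8 genes were at the floor or near it. TIP5-1 and NIP4-1 were listed at 0 reads in all 12 samples, which allows up to 3 reads in each. TIP3-1 and TIP3-2, the seed-specific vacuolar channels, had at most 2 reads in any sample. TIP1-3, known from pollen, had at most 8 reads, NIP4-2 at most 6 and NIP7-1, an anther gene, at most 12. NIP2-1, a channel for lactic acid induced by low oxygen, was the eighth and exceeded 1 TPM in 3 of the mock samples: it had 2 to 9 reads in iSB09-treated and 14 to 40 reads in mock-treated CsPYL1_5m plants, and 1 to 8 reads in iSB09-treated and 11 to 23 reads in mock-treated WT, so that the treatments did not overlap in either genotype. An opposite-strand gene overlaps NIP2-1 over 1432 bp, and strand was not used in counting. Reads in the shared stretch thus cannot be assigned to either gene, and the level of NIP2-1 is uncertain. NIP2-1 entered no main test. Among genes tested, iSB09 samples all lay below mock samples for 45.8% in CsPYL1_5m plants and for 18.5% in WT.

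iSB09 raised more aquaporin genes than it lowered in both genotypes, and the subfamilies differed in direction. In CsPYL1_5m plants, 12 of 27 rose (44.4%, against 24% of the 19862 genes tested) and 9 fell (33.3%, against 42.3%), at an adjusted p below 0.05 (limma, Benjamini-Hochberg adjustment over all genes tested). With a log2 fold change beyond 1 as well, the threshold for a call, 4 were called higher (14.8%, against 9.17%) and 2 lower (7.41%, against 8.35%). In WT, 11 of 27 rose (40.7%, against 7.5% of the 19612 genes tested) and 2 fell (7.41%, against 7.13%), with 3 called higher (11.1%, against 2.28%) and 1 called lower (3.70%, against 1.54%). Of the 27 genes, 11 passed the test in both genotypes and moved in the same direction in both, 10 passed in CsPYL1_5m plants alone, 2 in WT alone, and 4 in neither (TIP4-1, SIP1-1, SIP2-1 and NIP1-2). The difference between genotypes itself passed for 4 of these 10 (PIP1-4, PIP2-4, PIP2-6 and PIP2-8) and for both genes that passed in WT alone (PIP2-2 and TIP1-2). The shares of all genes tested in these classes were not counted, so that these counts describe the members only. In CsPYL1_5m plants, iSB09 samples all lay above mock samples for 12 genes, against 26% of genes tested, and below for 9, against 45.8%. In WT they lay above for 14, against 20.2%, and below for 2, against 18.5%. TPM values sum to a fixed total, and the median log2 fold change of all genes tested was -0.16 in CsPYL1_5m plants and 0.011 in WT. With median-ratio scaling, which removes this shift, 13 aquaporin genes rose and 5 fell in CsPYL1_5m plants, with 6 called higher and 2 lower. Of all genes called in CsPYL1_5m plants, 64.0% were then called higher, in place of 52.3%.

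The WT counts depended on single libraries. Without replicate 3 of mock-treated WT, 2 aquaporin genes rose, none fell and none was called, and the adjusted p of the 11 that no longer passed was 0.0607 to 0.175. Without replicate 2 of that group, 3 rose and none fell, with 2 called higher. Without replicate 3 of iSB09-treated WT, 2 rose and 2 fell, with 1 called in each direction, and without replicate 1 of mock-treated WT 10 rose and 3 fell, with 2 called lower. The third that fell there was NIP2-1, outside the 27 and past the filter only without this library, at -1.31 (adjusted p = 0.0455). This library held its lowest mock value in WT, so that leaving it out both admitted NIP2-1 and enlarged its fall. This fit is therefore no support for a fall of NIP2-1. With all samples and no filter, NIP2-1 was at -1.09 in WT (limma, adjusted p = 0.0640) and at -0.98 in CsPYL1_5m plants (adjusted p = 0.0321). Without replicate 2 of iSB09-treated WT, the library that stood apart, 11 rose and 2 fell, with 3 called higher and 1 lower. The counts were as with all samples, but TIP1-2 no longer passed (adjusted p = 0.0602) and PIP2-6 did (adjusted p = 0.0215). Only PIP2-1 and PIP2-3 passed the test in WT under each of the 18 alternatives, whereas 17 of the 21 genes that passed in CsPYL1_5m plants did so under each of theirs.

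**Figure D2:**
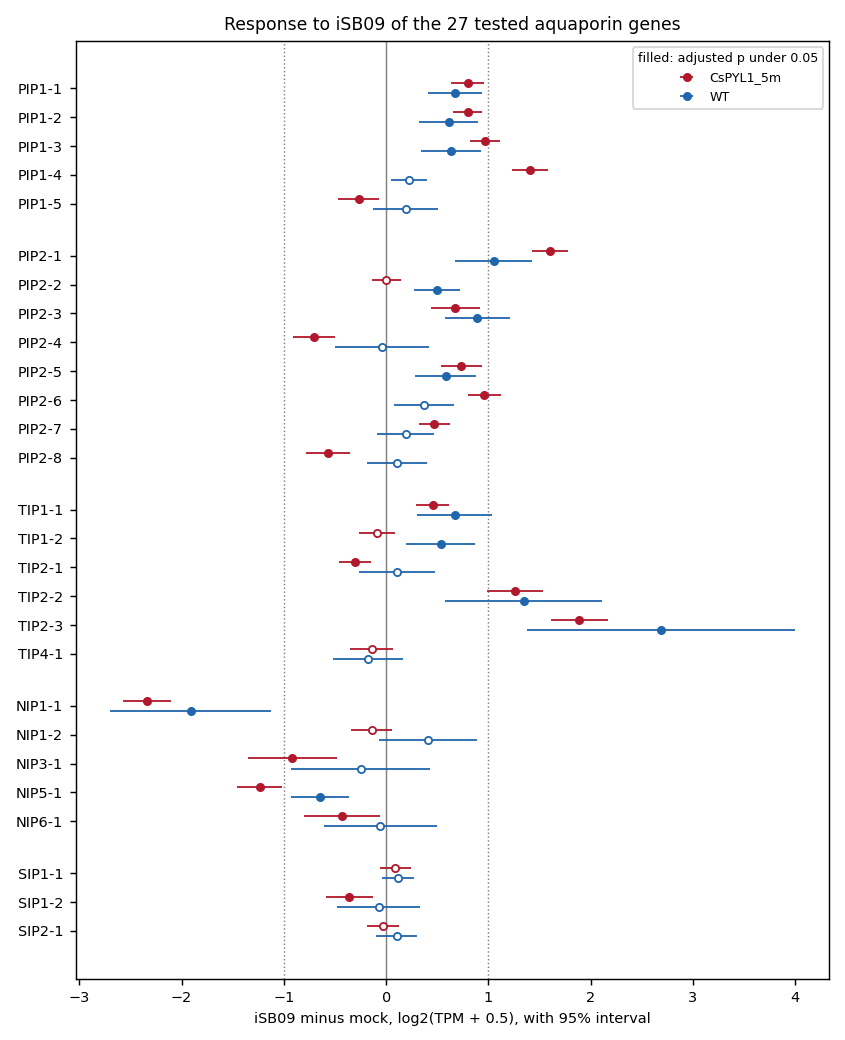
Difference between iSB09 and mock treatment of the 27 tested aquaporin genes on the log2(TPM + 0.5) scale, with 95% intervals, in CsPYL1_5m plants and in WT. Filled points passed an adjusted p of 0.05 and dotted lines mark 1 and -1. Most PIP points lie right of 0, NIP1-1 and NIP5-1 lie left of it in both genotypes, and the SIP points lie near it.

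In the PIP1 subfamily, iSB09 raised 4 of 5 genes in CsPYL1_5m plants, against 24% of all genes, and 3 of 5 in WT, against 7.5%. Median log2 fold changes were 0.80 in CsPYL1_5m plants and 0.61 in WT. PIP1-4 (AT4G00430, chr4:185285-187680), a channel that passes hydrogen peroxide as well as water, was the member with the largest difference between genotypes. PIP1-4 had 498, 560.4 and 588 TPM in iSB09-treated CsPYL1_5m plants, against 196, 214 and 209 TPM in mock-treated ones. In WT it had 237, 229 and 246 TPM with iSB09, against 215, 203 and 194 TPM with mock treatment. The iSB09 samples of CsPYL1_5m plants thus lay far above every other sample, and in WT the treatments were apart by a narrow gap. The log2 fold change was 1.41 (SE 0.0785, adjusted p = 5.93e-07) in CsPYL1_5m plants and 0.22 (SE 0.0758, adjusted p = 0.0939) in WT, and the responses differed by 1.19 (SE 0.107, adjusted p = 1.09e-05). This difference exceeded 1 under each of the 23 alternatives as well.

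PIP1-2 (AT2G45960, chr2:18910081-18911982) had 621, 657 and 644 TPM in iSB09-treated CsPYL1_5m plants, against 363, 380.3 and 361 TPM in mock-treated ones. It had 524, 546 and 539.9 TPM in iSB09-treated WT, against 419, 345 and 300.4 TPM in mock-treated WT, and the treatments did not overlap in either genotype. It rose by 0.80 (SE 0.0632, adjusted p = 5.47e-06) in CsPYL1_5m plants and by 0.61 (SE 0.124, adjusted p = 0.0201) in WT on the log2 scale, and no longer passed in WT without replicate 3 of iSB09-treated WT or replicate 2 or 3 of mock-treated WT (adjusted p = 0.0720 to 0.0766). The difference between responses was 0.19 (95% interval -0.12 to 0.50). PIP1-1 and PIP1-3 rose in both genotypes, by 0.80 and 0.97 in CsPYL1_5m plants and by 0.67 and 0.63 in WT. In WT each no longer passed in 3 of 18 alternatives (adjusted p up to 0.0607 and 0.0876). PIP1-3 passed a log2 fold change of 1 in CsPYL1_5m plants after median-ratio scaling, at 1.13. PIP1-5 differed from the rest of the subfamily: it fell in CsPYL1_5m plants by 0.27 (SE 0.0868, adjusted p = 0.0214), which was -0.11 with an adjusted p of 0.312 after median-ratio scaling, and its log2 fold change in WT was 0.19 (adjusted p = 0.381). Its fall in CsPYL1_5m plants was also lost without replicate 2 or 3 of the iSB09 group (adjusted p = 0.0702 and 0.0549). The difference between its responses did not pass in the main test and passed in 2 of 23 alternatives. One was the fit without replicate 1 of mock-treated WT, at -0.60 (adjusted p = 0.00998).

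In the PIP2 subfamily, 5 of 8 genes rose and 2 fell in CsPYL1_5m plants, against 24% and 42.3% of all genes. In WT, 4 rose and none fell, against 7.5% and 7.13%. Median log2 fold changes were 0.57 in CsPYL1_5m plants and 0.43 in WT. PIP2-1 (AT3G53420, chr3:19803473-19805730), a major water channel and the substrate of OST1 named above, had 954, 1106 and 987 TPM in iSB09-treated CsPYL1_5m plants, against 338, 319 and 342 TPM in mock-treated ones. PIP2-1 had 699, 637 and 717 TPM in iSB09-treated WT, against 426, 309 and 273 TPM in mock-treated WT. It was called in both genotypes, as were TIP2-2, TIP2-3 and NIP1-1, and no sample with iSB09 overlapped the mock samples of its genotype. The log2 fold change was 1.60 (SE 0.0772, adjusted p = 2.41e-07) in CsPYL1_5m plants and 1.05 (SE 0.162, adjusted p = 0.00845) in WT. The responses differed by 0.56 (SE 0.191, adjusted p = 0.0426), and this no longer passed in 14 of 23 alternatives (adjusted p up to 0.104), among them the fits without any 1 of 10 libraries, all but replicates 1 and 3 of mock-treated WT.

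PIP2-6, a gene expressed in leaf veins, rose in CsPYL1_5m plants by 0.96, which was 1.12 and a call after median-ratio scaling, and had a log2 fold change of 0.37 in WT (adjusted p = 0.0894), or of 0.48 (adjusted p = 0.0215) without replicate 2 of iSB09-treated WT. Its levels were 389 to 438 TPM in iSB09-treated and 206 to 221 TPM in mock-treated CsPYL1_5m plants, and 237 to 326 TPM in iSB09-treated and 197 to 225 TPM in mock-treated WT. The responses differed by 0.59 (SE 0.149, adjusted p = 0.0104). PIP2-7 rose in CsPYL1_5m plants by 0.47, and PIP2-5 and PIP2-3, a gene first known as dehydration-responsive RD28, rose in both genotypes. In WT, PIP2-5 no longer passed in 4 of 18 alternatives (adjusted p up to 0.101). PIP2-4 and PIP2-8 moved the other way and fell in CsPYL1_5m plants by 0.71 and 0.57, whereas their log2 fold changes in WT were -0.04 and 0.11 (adjusted p = 0.911 and 0.612). The responses differed by -0.67 (SE 0.160, adjusted p = 0.00771) for PIP2-8 and by -0.67 (SE 0.235, adjusted p = 0.0475) for PIP2-4. For PIP2-4 this did not pass in 15 of 23 alternatives, among them 9 fits without 1 library (adjusted p = 0.0504 to 0.101). PIP2-4 had 40.0 to 43.4 TPM in iSB09-treated and 60.1 to 76.9 TPM in mock-treated CsPYL1_5m plants. In WT it had 43.5 to 45.7 TPM with iSB09 and 33.2 to 60.5 TPM with mock treatment. Its mean levels in the genotypes were thus closer with iSB09 (41.9 and 44.7 TPM) than with mock treatment (68.9 and 47.4 TPM).

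PIP2-2, a contributor to root water uptake, and PIP2-3 are neighbors on chromosome 2 and the closest pair of the family, with 94.8% identity over 858 aligned coding bases. Only uniquely mapped pairs were counted, so that reads from stretches they share are missing from both, and the split between them is uncertain. PIP2-2 had 277 to 294 TPM in iSB09-treated and 272 to 295 TPM in mock-treated CsPYL1_5m plants, which overlapped, with a 95% interval of the log2 fold change of -0.14 to 0.14. In WT it had 298 to 326 TPM with iSB09 and 202 to 246 TPM with mock treatment and rose by 0.50 (SE 0.0958, adjusted p = 0.0166). This rise no longer passed in 3 of 18 alternatives (adjusted p up to 0.0807). The responses differed by -0.50 (SE 0.112, adjusted p = 0.00593). PIP2-3 rose by 0.68 in CsPYL1_5m plants and by 0.89 in WT, and the 95% interval of the difference was -0.62 to 0.19.

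**Figure D3:**
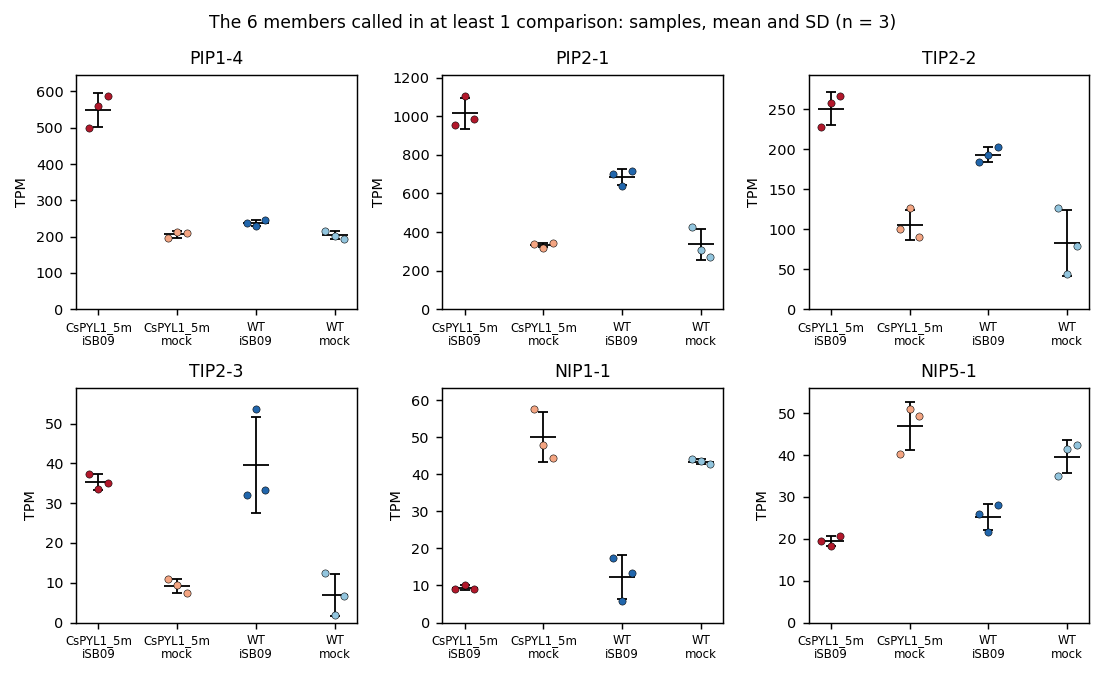
Level (TPM) of the 6 aquaporin genes called in at least 1 comparison, with a point per sample and the mean and SD of 3 samples in each of the 4 groups. PIP1-4 is raised in iSB09-treated CsPYL1_5m plants at 498 to 588 TPM, PIP2-1, TIP2-2 and TIP2-3 are higher with iSB09 in both genotypes, and NIP1-1 and NIP5-1 are lower.

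Of the 6 TIP genes tested, 3 rose and 1 fell in CsPYL1_5m plants, against 24% and 42.3% of all genes. In WT, 4 rose and none fell, against 7.5% and 7.13%. Median log2 fold changes were 0.18 in CsPYL1_5m plants and 0.60 in WT. The largest changes were those of TIP2-2 and TIP2-3. TIP2-2 (AT4G17340, chr4:9698940-9700472) had 228, 258 and 267 TPM in iSB09-treated CsPYL1_5m plants, against 99.7, 126 and 90.2 TPM in mock-treated ones. It had 184, 193 and 203 TPM in iSB09-treated WT, against 126, 43.6 and 79.0 TPM in mock-treated WT. Its nearest relative TIP2-3 (AT5G47450, chr5:19248249-19249622), a vacuolar channel that passes ammonia, was lower in level: it had 37.4, 33.5 and 35.1 TPM in iSB09-treated CsPYL1_5m plants, against 11.0, 9.36 and 7.49 TPM in mock-treated ones. TIP2-3 had 31.9, 53.6 and 33.2 TPM in iSB09-treated WT, against 12.4, 1.85 and 6.79 TPM in mock-treated WT. The treatments did not overlap for either gene in either genotype. Such a rise without overlap was seen for 26% of genes tested in CsPYL1_5m plants and for 20.2% in WT. Mock-treated WT was the most scattered group, with TIP2-3 spread 6.71-fold between its lowest and highest sample. TIP2-2 rose by 1.26 (SE 0.119, adjusted p = 1.72e-05) in CsPYL1_5m plants and by 1.34 (SE 0.329, adjusted p = 0.0361) in WT. TIP2-3 rose by 1.89 (SE 0.123, adjusted p = 1.58e-06) in CsPYL1_5m plants and by 2.69 (SE 0.562, adjusted p = 0.0218) in WT. Without replicate 2 of mock-treated WT, the lowest sample of both genes, the WT values were 0.95 for TIP2-2 (adjusted p = 0.0525) and 2.01 for TIP2-3. Without replicate 3 of mock-treated WT the adjusted p was 0.121 for TIP2-2 and 0.0813 for TIP2-3, without replicate 3 of iSB09-treated WT it was 0.108 and 0.0641, and without replicate 1 of that group it was 0.0595 for TIP2-2. The differences between responses had 95% intervals of -0.94 to 0.77 for TIP2-2 and -2.20 to 0.61 for TIP2-3.

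TIP1-2, the most abundant member, had 1522, 1489 and 1381 TPM in iSB09-treated CsPYL1_5m plants, against 1513, 1600 and 1562 TPM in mock-treated ones, and the groups overlapped. It had 2078, 2066 and 1965 TPM in iSB09-treated WT, against 1736, 1238 and 1293 TPM in mock-treated WT, without overlap. Its log2 fold change was -0.091 (SE 0.0775, adjusted p = 0.322) in CsPYL1_5m plants and 0.53 (SE 0.145, adjusted p = 0.0490) in WT, where it no longer passed in 9 of 18 alternatives (adjusted p up to 0.175), among them the fits without any 1 library other than replicate 1 of mock-treated WT. The responses differed by -0.63 (SE 0.165, adjusted p = 0.0132), and by -0.46 (adjusted p = 0.0597) after median-ratio scaling. TIP1-1, the water channel also known as gamma-TIP, rose in both genotypes, by 0.45 in CsPYL1_5m plants and by 0.67 in WT. In WT it no longer passed in 5 of 18 alternatives (adjusted p up to 0.126). TIP2-1 fell in CsPYL1_5m plants by 0.30 (adjusted p = 0.00383), and by 0.14 with an adjusted p of 0.130 after median-ratio scaling, and a gene on the opposite strand overlaps it. The difference between the responses of TIP2-1 did not pass in the main test. It passed in 1 of 23 alternatives, at -0.55 (adjusted p = 0.0176) without replicate 1 of mock-treated WT.

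In the NIP subfamily no gene rose in either genotype, against 24% of all genes in CsPYL1_5m plants and 7.5% in WT. In CsPYL1_5m plants 4 of 5 fell, against 42.3% of all genes, and in WT 2 of 5 fell, against 7.13%. Median log2 fold changes were -0.92 in CsPYL1_5m plants and -0.25 in WT. NIP1-1 (AT4G19030, chr4:10421521-10423508), which is permeable to arsenite, had 8.96, 10.2 and 9.14 TPM in iSB09-treated CsPYL1_5m plants, against 57.5, 47.9 and 44.5 TPM in mock-treated ones. In WT it had 17.5, 5.87 and 13.3 TPM with iSB09, against 44.0, 43.4 and 42.7 TPM with mock treatment. Each iSB09 sample thus lay far below each mock sample, and the WT samples with iSB09 were the most scattered, with replicate 2 the lowest. The log2 fold change was -2.34 (SE 0.103, adjusted p = 1.40e-07) in CsPYL1_5m plants and -1.91 (SE 0.337, adjusted p = 0.0124) in WT, where the adjusted p was 0.0597 without replicate 2 and 0.0638 without replicate 3 of the mock group. The difference between responses was -0.43 (95% interval -1.28 to 0.43), and without replicate 2 of iSB09-treated WT it was -0.86 (adjusted p = 0.00205).

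NIP5-1 (AT4G10380, chr4:6431161-6435396), the boric acid channel of root uptake, had 19.5, 18.4 and 20.7 TPM in iSB09-treated CsPYL1_5m plants, against 40.3, 51.0 and 49.3 TPM in mock-treated ones. NIP5-1 had 25.9, 21.7 and 28.0 TPM in iSB09-treated WT, against 35.1, 41.4 and 42.5 TPM in mock-treated WT. The treatments did not overlap in either genotype, and in WT the adjusted p was 0.0633 without replicate 2 and 0.0786 without replicate 3 of the mock group. NIP5-1 fell by 1.24 (SE 0.0968, adjusted p = 5.13e-06) in CsPYL1_5m plants and by 0.64 (SE 0.122, adjusted p = 0.0157) in WT, and the responses differed by -0.59 (SE 0.164, adjusted p = 0.0169), or by -0.43 (adjusted p = 0.0643) after median-ratio scaling. NIP6-1, its closest relative, which carries boric acid in shoots, and NIP3-1 fell in CsPYL1_5m plants, by 0.43 (adjusted p = 0.0425) and 0.92, although NIP6-1 missed the threshold after median-ratio scaling (adjusted p = 0.169) and without any 1 library other than replicate 2 of the mock group (0.0501 to 0.129). NIP1-2, which shares 85.1% of its aligned coding bases with NIP1-1, did not pass the test, with log2 fold changes of -0.14 in CsPYL1_5m plants and 0.41 in WT (95% intervals -0.34 to 0.055 and -0.07 to 0.89). The difference between the responses of NIP1-2 did not pass in the main test. It passed in 1 of 23 alternatives, at -0.72 (adjusted p = 0.0217) without replicate 1 of iSB09-treated WT.

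Of the 3 SIP genes, 1 fell in CsPYL1_5m plants, where 42.3% of all genes tested fell, and none passed the test in WT. Median log2 fold changes were -0.03 in CsPYL1_5m plants and 0.10 in WT. SIP1-1 (AT3G04090, chr3:1071984-1074244) had 142, 146 and 139 TPM in iSB09-treated CsPYL1_5m plants, against 128, 144 and 129 TPM in mock-treated ones, and the groups overlapped. It had 125, 125 and 127 TPM in iSB09-treated WT, against 119.7, 116 and 113 TPM in mock-treated WT. Its log2 fold change had a 95% interval of -0.061 to 0.24 in CsPYL1_5m plants and of -0.044 to 0.27 in WT, although it passed the test in CsPYL1_5m plants after median-ratio scaling, at 0.25 (adjusted p = 0.0109). SIP1-2 fell in CsPYL1_5m plants by 0.36 (adjusted p = 0.0121), and by 0.21 (adjusted p = 0.0915) after median-ratio scaling. SIP1-2 and SIP2-1 overlap genes on the opposite strand, which adds to the uncertainty of their levels.

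Levels were also summed over each subfamily. PIP1 genes summed to 2140 to 2278 TPM in iSB09-treated and 1203 to 1279 TPM in mock-treated CsPYL1_5m plants, and to 1573 to 1632 TPM in iSB09-treated and 1004 to 1321 TPM in mock-treated WT. PIP2 genes summed to 2254 to 2482 TPM in iSB09-treated and 1310 to 1329 TPM in mock-treated CsPYL1_5m plants, and to 1659 to 1826 TPM in iSB09-treated and 1079 to 1374 TPM in mock-treated WT. The PIP sums were thus higher with iSB09 in both genotypes, and iSB09-treated CsPYL1_5m plants were above iSB09-treated WT in every sample. TIP genes summed to 3223 ± 98.7 TPM in iSB09-treated and 2972 ± 103 TPM in mock-treated CsPYL1_5m plants, and to 3827 ± 118 TPM in iSB09-treated and 2669 ± 520.4 TPM in mock-treated WT (SD, n = 3 each). Here every sample of iSB09-treated CsPYL1_5m plants was below every sample of iSB09-treated WT. NIP genes summed to 49.7 to 53.4 TPM in iSB09-treated and 126 to 127 TPM in mock-treated CsPYL1_5m plants, and to 62.7 to 74.2 TPM in iSB09-treated and 105 to 118 TPM in mock-treated WT. The SIP sum was 182 to 186 TPM in iSB09-treated and 170.0 to 192 TPM in mock-treated CsPYL1_5m plants, which overlapped, and 167 to 172 TPM in iSB09-treated and 154 to 162 TPM in mock-treated WT. As a share of the family, TIP genes took 40.2% in iSB09-treated and 51.0% in mock-treated CsPYL1_5m plants, and 51.5% in iSB09-treated and 50.6% in mock-treated WT. The whole family summed to 7863 to 8314 TPM in iSB09-treated and 5681 to 5989 TPM in mock-treated CsPYL1_5m plants, and to 7217 to 7556 TPM in iSB09-treated and 4769 to 6230 TPM in mock-treated WT. The highest mock-treated WT sample of the PIP1, PIP2, TIP and family sums was replicate 1. These sums are descriptions and were not tested.

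**Figure D4:**
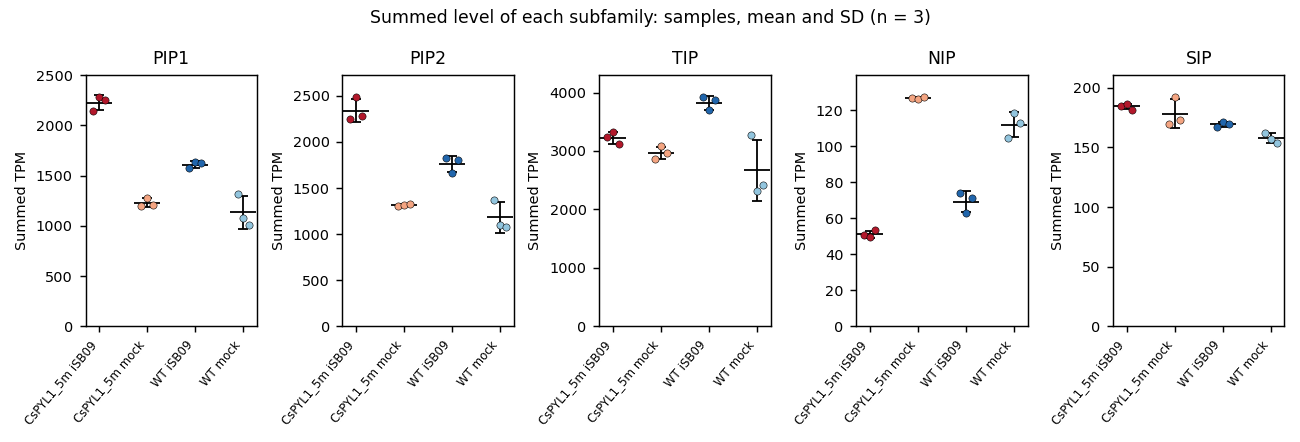
Summed level (TPM) of the genes of each aquaporin subfamily in every sample, with the mean and SD of 3 samples in each of the 4 groups. PIP1 and PIP2 sums are highest in iSB09-treated CsPYL1_5m plants, the TIP sum is highest in iSB09-treated WT, and the NIP sum is lower with iSB09 in both genotypes, at 49.7 to 53.4 TPM in CsPYL1_5m plants.

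Between mock-treated CsPYL1_5m plants and mock-treated WT, none of 27 aquaporin genes passed the test (limma), where 0.0717% of 19530 genes did and 0.0666% were called, and 4 of 27 (14.8%) had an unadjusted p below 0.05, against 8.70% of all genes tested. No alternative tool or setting called a member, limma voom on recovered reads included. The lowest adjusted p was 0.347, for PIP2-2, at a log2 fold change of 0.38 (95% interval 0.17 to 0.59). The intervals were widest for TIP2-3 (-0.45 to 1.80) and TIP2-2 (-0.25 to 1.17).

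The test of the difference between responses, CsPYL1_5m minus WT, passed for 8 of 27 genes. It was higher in CsPYL1_5m plants for PIP1-4, PIP2-1 and PIP2-6 (11.1%, against 11.8% of 20081 genes tested) and lower for PIP2-2, PIP2-4, PIP2-8, TIP1-2 and NIP5-1 (18.5%, against 21%), with values as given above. PIP1-4 alone was called higher (3.70%, against 6.03%), and no member was called lower, against 3.6% of all genes. These shares were near or below those of all genes. The median difference was -0.22 over the 27 members and -0.16 over all genes tested. After median-ratio scaling, 5 members were higher (PIP1-3 and PIP2-7 in addition) and 2 lower (PIP2-2 and PIP2-8), and 76.2% of all genes called were higher, in place of 62.6%.

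The sequences just upstream of the called genes were read from TAIR10.1 (RefSeq), as the 250 bases before the annotated start, and are shown for 4 called genes and 2 others for comparison of motif content. Matches on either strand to ACGTG, the core of the ABA-responsive element, and to CCGAC, the core of the dehydration-responsive element, were searched and stand in capitals. The letters do not overlap each other.
PIP1-4 (chr4:187681-187930, minus strand): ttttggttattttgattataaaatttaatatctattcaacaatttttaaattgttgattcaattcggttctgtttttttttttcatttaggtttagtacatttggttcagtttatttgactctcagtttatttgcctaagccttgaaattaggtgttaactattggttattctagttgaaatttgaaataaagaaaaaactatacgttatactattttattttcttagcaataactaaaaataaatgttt
PIP1-3 (chr1:227544-227793, minus strand): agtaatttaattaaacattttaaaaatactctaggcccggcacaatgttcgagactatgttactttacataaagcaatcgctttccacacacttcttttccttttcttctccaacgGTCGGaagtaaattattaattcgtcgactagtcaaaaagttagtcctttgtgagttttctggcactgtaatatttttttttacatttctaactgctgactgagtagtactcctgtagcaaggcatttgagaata
PIP2-1 (chr3:19805731-19805980, minus strand): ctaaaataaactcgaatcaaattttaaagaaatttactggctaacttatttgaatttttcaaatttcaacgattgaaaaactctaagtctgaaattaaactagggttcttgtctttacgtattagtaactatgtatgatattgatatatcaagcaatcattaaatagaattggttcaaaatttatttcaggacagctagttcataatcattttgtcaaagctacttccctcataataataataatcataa
TIP2-3 (chr5:19249623-19249872, minus strand): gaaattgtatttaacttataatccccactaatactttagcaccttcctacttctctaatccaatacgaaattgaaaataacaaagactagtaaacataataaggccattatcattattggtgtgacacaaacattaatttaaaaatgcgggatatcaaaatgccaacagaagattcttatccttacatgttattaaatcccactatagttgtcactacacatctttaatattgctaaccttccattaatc
NIP1-1 (chr4:10423509-10423758, minus strand): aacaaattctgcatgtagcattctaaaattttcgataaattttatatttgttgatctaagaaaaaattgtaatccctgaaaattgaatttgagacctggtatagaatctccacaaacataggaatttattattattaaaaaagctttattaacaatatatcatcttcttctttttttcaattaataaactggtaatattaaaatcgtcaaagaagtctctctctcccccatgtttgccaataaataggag
TIP1-1 (chr2:15445044-15445293, plus strand): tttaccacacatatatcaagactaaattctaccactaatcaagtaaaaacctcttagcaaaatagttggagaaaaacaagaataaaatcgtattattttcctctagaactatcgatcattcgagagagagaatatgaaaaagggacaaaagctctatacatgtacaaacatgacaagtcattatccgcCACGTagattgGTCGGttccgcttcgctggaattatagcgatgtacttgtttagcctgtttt
PIP1-3 is shown as the closest relative of PIP1-4, with 85.2% identity over aligned coding bases, and TIP1-1 as the only member with both motifs. ACGTG was found in 4 of 35 aquaporin windows (TIP1-1, TIP3-1, TIP5-1 and SIP1-1), or 11.4%, against 22.9% of the windows of 27443 protein-coding genes. CCGAC was found in 4 of 35 (PIP1-3, PIP2-5, TIP1-1 and TIP1-2), or 11.4%, against 12.0%. In TIP1-1 they start 62 and 51 bases before the gene. None of the 6 genes called, NIP5-1 and TIP2-2 included, had either motif in its window, which says only that these letters are not in these 250 bases.

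Proteins that act on aquaporins were followed as a list of 13 genes, of which 4 rose and 4 fell in CsPYL1_5m plants (30.8% each, against 24% and 42.3% of all genes) and 5 rose and none fell in WT (38.5% higher, against 7.5%). TSPO, a stress-induced membrane protein that brings PIP2-7 to degradation, had 389.6, 495 and 482 TPM in iSB09-treated CsPYL1_5m plants, against 0.152, 0.160 and 0.102 TPM in mock-treated ones. It had 9.22, 7.13 and 8.94 TPM in iSB09-treated WT, against 0.370, 0.143 and 0.0746 TPM in mock-treated WT. Mock samples thus held 1 to 5 reads each, and the ratio of reads per depth was 3254 (counting interval 1651 to 7538) in CsPYL1_5m plants and 42.1 (21.1 to 98.4) in WT. The fitted values, which depend on the pseudocount at such levels, were 9.47 (SE 0.101, adjusted p = 2.09e-10) in CsPYL1_5m plants and 3.70 (SE 0.208, adjusted p = 2.56e-04) in WT. PIP2-7 transcripts rose in CsPYL1_5m plants, as given above.

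OST1, the kinase that phosphorylates PIP2-1, had 43.2, 47.6 and 51.7 TPM in iSB09-treated CsPYL1_5m plants, against 13.8, 13.8 and 12.7 TPM in mock-treated ones. It had 19.0, 25.1 and 23.1 TPM in iSB09-treated WT, against 14.5, 15.4 and 15.2 TPM in mock-treated WT. It rose by 1.78 (SE 0.0815, adjusted p = 1.77e-07) in CsPYL1_5m plants and by 0.55 (SE 0.117, adjusted p = 0.0232) in WT, and the responses differed by 1.23 (SE 0.143, adjusted p = 7.69e-05). In WT it no longer passed without replicate 3 of iSB09-treated WT or any 1 mock replicate (adjusted p = 0.0622 to 0.0921). RMA1, a ubiquitin ligase that acts on PIP2-1, had 17.9, 17.5 and 19.2 TPM in iSB09-treated CsPYL1_5m plants, against 17.4, 17.1 and 17.9 TPM in mock-treated ones. It had 21.9, 35.2 and 24.8 TPM in iSB09-treated WT, with replicate 2 the highest, against 14.7, 11.0 and 12.6 TPM in mock-treated WT, and was called in WT at 1.05 (SE 0.187, adjusted p = 0.0127). Without replicate 2 of iSB09-treated WT this was 0.86 (adjusted p = 0.00665), which is no call, and without replicate 2 or 3 of mock-treated WT the adjusted p was 0.0584 and 0.0650. Its log2 fold change in CsPYL1_5m plants was 0.056 (95% interval -0.10 to 0.21), or 0.22 (adjusted p = 0.020) after median-ratio scaling. The responses of RMA1 differed by -0.99 (SE 0.210, adjusted p = 0.00409) and those of its homolog RMA2 by -1.66 (SE 0.471, adjusted p = 0.0187). RMA2 had 5.89, 22.3 and 11.0 TPM in iSB09-treated WT, with replicate 2 the highest, against 6.06, 6.16 and 4.75 TPM in mock-treated WT, and 3.20 to 3.67 TPM in iSB09-treated CsPYL1_5m plants, against 4.88 to 6.58 TPM in mock-treated ones. XND1, a NAC transcription factor that lowers root water conductance, had 2.98, 3.85 and 2.78 TPM in iSB09-treated CsPYL1_5m plants, against 1.02, 1.36 and 1.76 TPM in mock-treated ones. It had 1.95, 4.56 and 3.04 TPM in iSB09-treated WT, again with replicate 2 the highest, against 1.44, 1.07 and 1.29 TPM in mock-treated WT. XND1 rose by 0.98 (SE 0.178, adjusted p = 0.00105) in CsPYL1_5m plants and by 1.0 (SE 0.270, adjusted p = 0.0475) in WT, where it was called just above the threshold and no longer passed without any 1 library other than replicate 1 of iSB09-treated WT (adjusted p = 0.0644 to 0.144). The receptor kinase SIRK1, which phosphorylates PIP proteins, fell in CsPYL1_5m plants by 0.85, and its responses differed by -0.81 (SE 0.185, adjusted p = 0.00611).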

How the data were processed

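Adapters were removed by the authors with cutadapt, paired reads were aligned with HISAT2 against TAIR10, and unique pairs were counted for Araport11 genes by HTSeq-count, unstranded. The authors deposited TPM and RPKM values of 37336 genes in 12 samples. The main test was limma 3.58.1 (R 4.3.3) with a variance trend on log2(TPM + 0.5), which understates the change of low genes. A gene was tested where all 3 replicates of a group compared reached 1 TPM, and the difference between responses was fitted on all 12 samples. Genes with an adjusted p below 0.05 rose or fell, and those with an absolute log2 fold change above 1 as well were called.

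Depth was recovered from deposited RPKM values and TAIR10.1 exon lengths, which gave whole reads (tolerance 0.02) for 72.3% of detected annotated genes, and 7603 genes took a fitted length, 9 members among them. Of all identifiers, 37051 matched the annotation. Reads entered no main test. Tests were tried on simulated data with known changes. In WT, same-numbered iSB09 and mock samples deviated together weakly (correlations of 0.158, 0.296 and 0.202 over 20081 genes). The labels state no pairing, and with 3 samples per group these values cannot establish that the numbers pair the samples.

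Values per sample are given for members called in any comparison and for the highest member of each subfamily in mock-treated WT, and those of 13 regulators for genes called. Other members with values of their own were singled out after their values were seen. The members, lists and rules were chosen with earlier results of these data known. As alternatives, the pseudocount was set to 0.1 or 1, low values were not filtered or filtered on the mean, samples were scaled by median ratios or quantiles, and other fits used the RPKM table, no trend, a replicate block with and without scaling, one fit of all samples, limma voom on recovered reads and leaving out each library. Plots were made with Python 3.11.15 and matplotlib 3.10.9.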

Additional observations from a re-analysis of the deposited data

Results flagged for a closer look

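The response to iSB09 differed between CsPYL1_5m plants and WT for 8 aquaporin genes and 5 regulators by the test of the difference itself (limma, adjusted p below 0.05). The differences, CsPYL1_5m minus WT on the log2 scale, were 1.19 for PIP1-4, 0.59 for PIP2-6 and 0.56 for PIP2-1. They were -0.67 for PIP2-8, -0.67 for PIP2-4, -0.63 for TIP1-2, -0.59 for NIP5-1 and -0.50 for PIP2-2. Among the regulators they were 5.78 for TSPO, 1.23 for OST1, -1.66 for RMA2, -0.99 for RMA1 and -0.81 for SIRK1. NIP5-1 fell in both genotypes, and PIP2-1 rose in both, so that for these the size of the response differed and not its direction. PIP1-4, PIP2-6 and PIP2-8 passed this test under each of the 23 alternatives, and the other 5 aquaporin genes did not.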

How the results depend on the processing

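No tested aquaporin gene reversed its direction past the threshold under any alternative. When libraries were left out, the members called in WT ran from 0 to 3 higher and from 0 to 2 lower, and those past the adjusted p from 2 to 11 higher and from 0 to 3 lower, NIP2-1 included where it passed the filter. In CsPYL1_5m plants, 4 to 5 were called higher, 2 to 3 lower, and 12 rose and 7 to 9 fell. The difference between responses was past the adjusted p for 2 to 3 members higher and 4 to 7 lower. Without replicate 3 of mock-treated WT, calls over all genes in WT were 254 higher and 166 lower, against 448 and 302 with all samples, and without replicate 2 they were 289 and 198.

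With median-ratio scaling, with the replicate block plus this scaling and with limma voom on recovered reads, 5 members fell in CsPYL1_5m plants, in place of 9. The difference between responses was then higher for 5 members under each of these, in place of 3, and lower for 2, 1 and 3 members, in place of 5, and all genes called lower were 466 and 480 with the scaling and with the block plus scaling, against 722. In the mock comparison, all genes called ran from 1 to 10 higher and from 1 to 3 lower over the settings that moved them and the main one. With the replicate block alone, 3 members were called higher and 1 lower in WT, and 4 higher and 2 lower in CsPYL1_5m plants, as without it. The block changed no call in WT, where same-numbered samples deviated together weakly. It changed none in CsPYL1_5m plants, where same-numbered samples gave correlations of 0.111, -0.0099 and -0.128. In the difference between responses, PIP2-1 (adjusted p = 0.0515) and PIP2-4 (0.0514) no longer passed with the block and PIP1-5 did (0.0458). The causes of these changes were not tested. Depth limits what can be said of the 8 genes near the floor.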
